A study of Mus musculus with 12 samples.

Results

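Open chromatin of lincRNA-EPS knockout (KO) macrophages was compared between 2 and 6 h of lipopolysaccharide (LPS). The comparison rests on 4 of the 12 libraries of the series, 2 at each time. Peaks of these 4 lists that overlapped by at least 1 bp were chained into 103366 regions, and a region counted as called in a library when a peak of that library lay in it. A region was gained when both libraries at 6 h and 0 of 2 at 2 h called it, and lost in the reverse case. This rule found 8795 gained and 1942 lost regions, 10737 in all.

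The assay was ATAC-seq: the transposase Tn5 cuts and tags DNA that nucleosomes leave free, so peaks of reads mark accessible sites. The cells were bone marrow-derived macrophages of female C57BL/6 mice that lack lincRNA-EPS, grown for 9 days with 20% L929 supplement and given LPS at 100 ng/ml. Each reaction took 50000 cells. Wild-type (WT) macrophages of the same strain, handled alike, supplied libraries that the rule did not use, and so did both genotypes at 0 h, without LPS. The labels do not say how the KO allele was made or whether replicates came from separate animals, so spread between replicates may be technical. The peak names inside the lists of the libraries labelled 2 h give 1 h, in both genotypes, and that conflict could not be settled. Positions are mm9. No mm9 annotation or genome was used here, so regions are named by position, and neither the deleted locus nor macrophage marker genes were checked.

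LPS, a part of the outer membrane of Gram-negative bacteria, is sensed by TLR4 with its partners MD-2 and CD14. The receptor activates NF-κB, AP-1 and interferon regulatory factors within minutes, and an early set of inflammatory genes follows. Products of that first wave, among them type I interferon, then drive a later wave, and many of the genes concerned need their enhancers opened first. In macrophages, enhancers are held open by lineage factors such as PU.1 and C/EBP, while stimulus-dependent factors open further ones. lincRNA-EPS is a long noncoding RNA that the study's title describes as a brake on inflammation. A comparison of 2 with 6 h therefore addresses which sites open or close late in cells without that RNA.

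The strongest gained regions were uncalled in every KO library before 6 h and stood among the strongest peaks of both lists at 6 h. Strength is given as the percentile of a peak's −log10 q within its own list, where 100 is the strongest peak. These values chose the regions and are a description. The leading region, chr18:11886296-11887045, stood at the 98.4 and 97.9 percentiles of the KO lists at 6 h (replicates 1 and 2). Reads over its summit numbered 122 and 94, and the authors' fold over local background was 14.6 and 15.2. In WT it was uncalled at 0 and 2 h and reached the 96.9 and 96.1 percentiles at 6 h.

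The second region, chr5:68024629-68025628, stood at 95 and 95.6 in KO at 6 h, with 99 and 83 reads at the summit. Both WT libraries at 6 h called it, at 91.3 and 93.3. The third, chr13:5822395-5823033, had percentiles of 91.0 and 91.9 and a fold of 10.8 and 11.5. Both replicates thus placed these 3 sites at the 91st percentile or above, while neither library at 2 h held a peak there.

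Next came chr11:94833123-94833769, at 93.6 and 89.2, and chr4:63596072-63597096, at 89.9 and 91.3. A further region on chromosome 11, chr11:45780273-45780950, had a fold of 12 in replicate 1 and 13.8 in replicate 2. The other members of the leading 10 were chr7:81537570-81538386, chr1:154664217-154665119, chr17:42984233-42985396 and chr12:120657928-120658623, with mean percentiles of 90.1, 89.5, 89.5 and 89.4. Of the 10, 9 were called in 0 of 4 libraries at 0 h. The exception, chr11:94833123-94833769, had a weak peak in WT 0 h replicate 2, at the 7.49 percentile. All 10 were called in both WT libraries at 6 h and in neither WT library at 2 h.

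**Figure D1:**
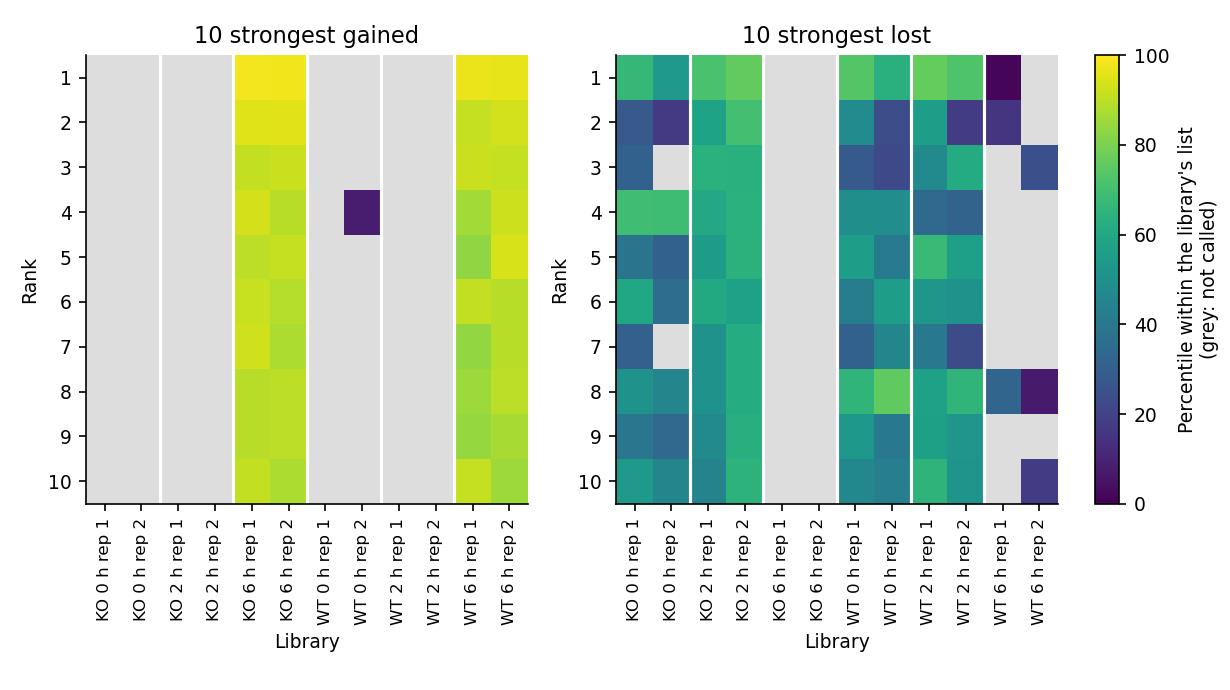
Percentile of −log10 q within each library's own list (colour, 0 to 100) for the 10 strongest gained regions (left) and the 10 strongest lost regions (right), 1 row per region in rank order and 1 column per library; grey marks a library that did not call the region. The gained regions are bright in KO and WT at 6 h and grey elsewhere but for 1 weak call, whereas the lost regions are called in most libraries at 0 and 2 h and some remain called in WT at 6 h.

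The strongest lost regions stood lower in their lists, and most were already called before LPS. The highest-ranked, chr8:87223716-87224257, stood at the 71.2 and 75.8 percentiles at 2 h, with 86 and 98 reads at the summit and a fold of 5.28 and 5.38. A 6 h peak lay 849 bp away. KO called this region before LPS too, at 66.5 and 54.1. WT kept it at 2 h, at 76.2 and 72.5, and at 6 h it had a weak call in replicate 1, at 1.93, and none in replicate 2.

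chr6:114816023-114816556 had percentiles of 58.1 and 70.2 at 2 h, and chr15:102794102-102794612 had 63.7 and 63.5. chr4:19765147-19765830 stood at 60.5 and 64 at 2 h, and at 69.2 and 69 in the shorter KO lists of 0 h. In WT it was called at 0 and 2 h and in neither library at 6 h. Regions chr17:25639520-25640016 and chr19:58428415-58428909 showed the same calls, with mean percentiles in KO at 2 h of 59.5 and 59.

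The rest of the 10 were chr11:117209574-117210054, chr1:179212070-179212577, chr15:73322636-73323062 and chr1:95307493-95307975, with means of 56.6, 56.3, 55.1 and 54.8. Both WT libraries at 2 h called all 10 lost regions, and at 6 h 5 of the 10 were called in 0 of 2. chr1:179212070-179212577 was the only one of the 10 still called in both WT libraries at 6 h, at 32.8 and 7.36.

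More peaks were listed at 6 h than at 2 h. KO libraries held 72710 and 74362 peaks at 2 h (73536 ± 1168.1, SD, n = 2) and 91610 and 78766 at 6 h (85188 ± 9082.1). The groups did not overlap. The difference of 11652 peaks had an exact two-sided permutation p = 0.333, the smallest that this test can give with 2 against 2, so it could pass no threshold. Leaving out replicate 1 of the 6 h group made it 5230, and leaving out replicate 2 made it 18074. Peaks covered 37.8 and 39.3 Mb at 2 h and 48.1 and 39.5 Mb at 6 h, where the smaller value at 6 h lay close to those at 2 h. Median peak width was 447 and 454 bp at 2 h and 450 and 439 bp at 6 h.

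Background coverage, the depth recovered from the deposited fold and p of each peak, was 2.79 and 3.04 reads at 2 h. At 6 h it was 3.35 in replicate 1 and 2.17 in replicate 2. KO 6 h replicate 2 was therefore the shallowest of the 4 libraries by this measure. It listed more peaks than either library at 2 h, and the part of depth in the peak numbers was not tested. After thinning every list to a background of 2.17 reads, the libraries held 71585 and 71782 peaks at 2 h and 87240 and 78764 at 6 h, a difference of 11318.5 (exact permutation p = 0.333). Thinning drew down the summit coverage of listed peaks and did not redo their width. Thinned lists are therefore not the same as lists called at equal depth. Of the peaks in KO 6 h replicate 1, the deepest of the 4, thinning kept 95.2%. The sources used here do not state how many reads were sequenced.

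**Figure D2:**
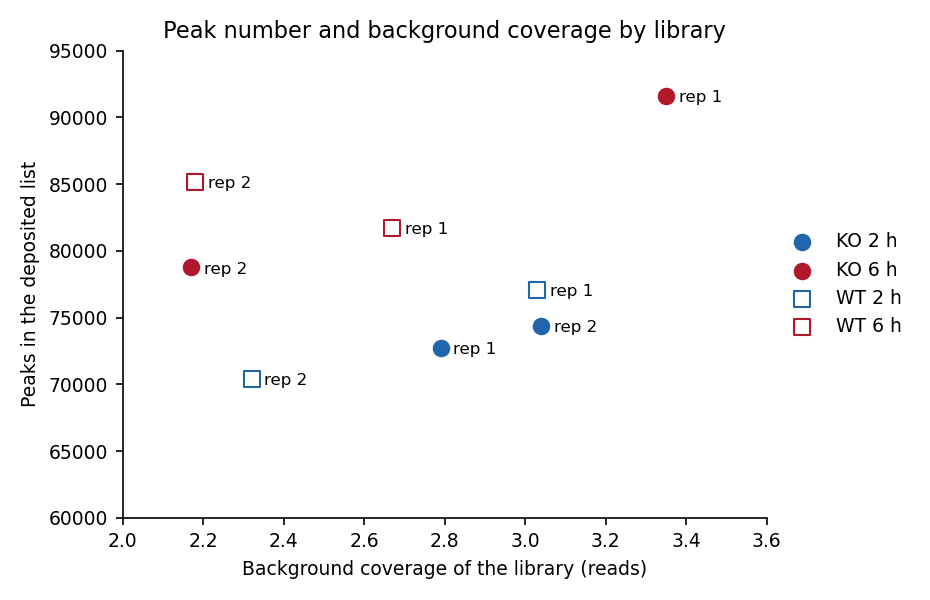
Peaks in the deposited list (vertical axis, which does not start at 0) against background coverage in reads (horizontal axis) for the KO (filled circles) and WT (open squares) libraries at 2 h (blue) and 6 h (red), 1 point per library. All 4 libraries at 6 h lie above all 4 at 2 h, from 78766 against at most 77100 peaks, over overlapping ranges of background coverage.

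Gained regions were 8.51% of the 103366 chained regions and lost regions 1.88%. The rule itself used these calls, so the shares are the background for what follows. Gained regions made up 81.9% of the changed ones, 80.8% in thinned lists and 56.9% when each list was cut to the same number of peaks. In that last setting each peak that enters a list displaces another, and it gave 5529 gained and 4195 lost regions. Thinned lists gave 8732 gained and 2074 lost, and 20 random thinnings ran from 8640 to 8775 and from 1993 to 2075. Of the gained regions 8200 (93.2%) and of the lost 1709 (88%) kept their class in the main thinning.

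Leaving out a library turns a requirement for 2 calls into 1, which raises both counts by construction. Gained regions then numbered 11701 without KO 2 h replicate 1, 12266 without its replicate 2, 12500 without replicate 1 of the 6 h group and 19632 without replicate 2 of that group. Lost regions numbered 5500, 4730, 6197 and 2660 in the same order. Gained regions outnumbered lost ones in each case.

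The largest class of regions, 56200 (54.4%), was called in both libraries of both times. Near misses were many: 14099 regions were called in 1 library at 6 h and none at 2 h, 10671 of them in replicate 1 and 3428 in replicate 2. A further 6150 were called in 1 library at 2 h and none at 6 h. At the edge of the rule, peaks of gained regions had a median percentile of 30.9 in KO 6 h replicate 1 and 23.5 in replicate 2, while peaks called in that library alone had 12.8 and 10.5. For lost regions the medians were 17.9 and 19 at 2 h, against 10 and 8.83 for peaks called in 1 library at 2 h.

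Gained and lost regions were narrower than those called in all 4 libraries. Region width had a median of 391 bp for gained (quartiles 327 and 477), 349 bp for lost (299 and 409) and 649 bp for regions called in 4 of 4 (504 and 875). Regions chained from 4 lists grow wider than those chained from 2, so peaks of single lists were compared too. In KO 6 h replicate 2 the median peak was 307 bp wide in gained regions and 516 bp in regions called in 4 of 4, and the summit held a median of 19 and 41 reads. In KO 2 h replicate 1 the median peak of lost regions was 278 bp wide against 515 bp, with 21 and 47 reads.

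A small set of gained regions was broad. The widest, chr8:55504817-55506128, spanned 1312 bp and stood at the 76.4 and 77.4 percentiles. It was followed by chr16:28963994-28965281 (1288 bp), chr1:152379332-152380595 (1264 bp), chr16:55588909-55590130 (1222 bp) and chr1:156954934-156956147 (1214 bp). All 5 were called in both WT libraries at 6 h. The replicates differed most on chr16:28963994-28965281, at 62.2 and 34.9.

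WT macrophages, whose libraries played no part in choosing the regions, showed the same direction. WT libraries at 2 h called 1736 (19.7%) and 1120 (12.7%) of the 8795 regions gained in KO. WT libraries at 6 h called 6234 (70.9%) and 6667 (75.8%) of them. Over all 103366 regions the same libraries called 70.3% and 64.8% at 2 h and 74% and 76.2% at 6 h. Both WT libraries at 6 h lay above both at 2 h for the gained regions, and also over all regions, where the gap was smaller.

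By the full rule, 0 of 2 WT libraries at 2 h and 2 of 2 at 6 h, WT gained 3890 (44.2%) of the regions gained in KO. The background was 7.35% of all regions. Without replicate 2 of KO at 6 h, where the looser rule gave 19632 gained regions, the share was 26.4%. Of the 6516 members that WT could gain because neither WT library at 2 h called them, 59.7% were gained, against 28.8% of the 26364 such regions over all. Among the 656 such regions that all 4 KO libraries called, the share was higher, at 71.2% (467 regions), so it was not particular to the gained ones. More WT libraries called the region at 6 h than at 2 h for 6582 members (74.8%), fewer for 368 (4.18%), and over all regions these shares were 20.4% and 10.4%. Neither WT library at 6 h called 1251 members (14.2%), near the 17.4% of all regions. These shares were not tested: members of a list are not replicates, and the exact permutation test of 2 libraries against 2 cannot go below 0.333.

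Regions lost in KO were also called less often in WT at 6 h. WT libraries at 2 h called 1398 (72%) and 1106 (57%) of the 1942 lost regions, and those at 6 h called 512 (26.4%) and 561 (28.9%). WT lost 460 (23.7%) by the same rule, against a background of 2.29%. That share was 12.7% without KO 2 h replicate 1, 14.3% without KO 2 h replicate 2, 14.5% with replicate 1 of KO at 6 h left out and 38.6% with replicate 2 of WT at 2 h left out. Of the 920 lost regions that both WT libraries at 2 h called, 50% were lost in WT, while of all 62639 regions called in both WT libraries at 2 h 3.79% were. Most of the 62639, 52902, were called in all 4 KO libraries, and WT lost 0.556% of these, so the 3.79% is not matched to the lost regions. Fewer WT libraries called the region at 6 h than at 2 h for 1183 members (60.9%), against 10.4% of all regions, and more did for 183 (9.42%), against 20.4%.

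In thinned lists WT libraries called 19.4% and 14.4% of the gained regions at 2 h and 71.2% and 77.7% at 6 h. For the lost they called 71.7% and 61.4% at 2 h and 28.3% and 33.7% at 6 h. Background coverage of WT was 3.03 and 2.32 reads at 2 h and 2.67 and 2.18 at 6 h, and the ranges overlapped.

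**Figure D3:**
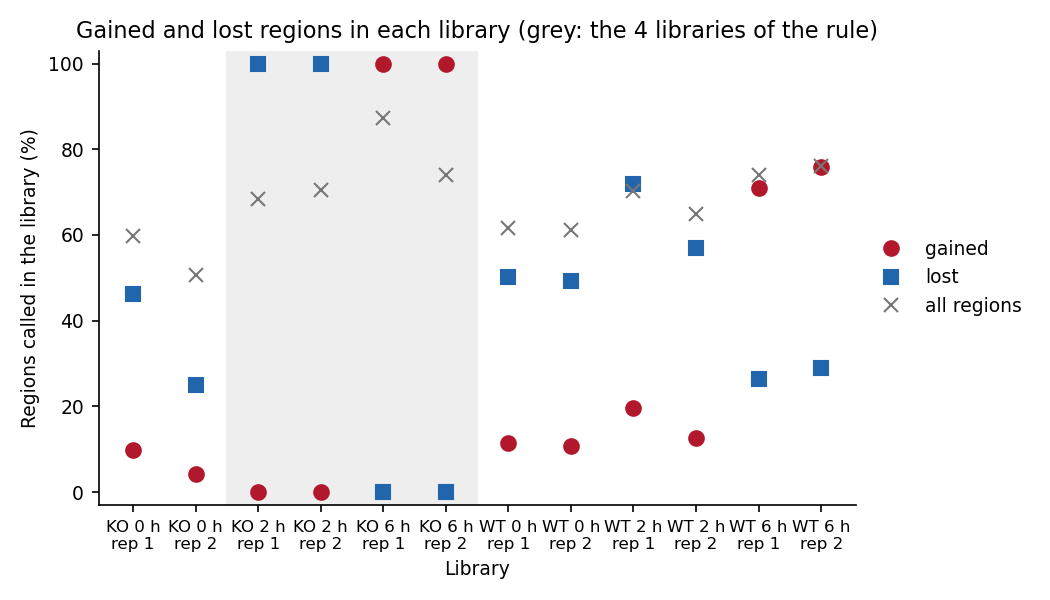
Share of the 8795 gained regions (red circles), the 1942 lost regions (blue squares) and all 103366 regions (grey crosses) that each of the 12 libraries called, in percent; shading marks the 4 libraries of the rule, where 0 and 100% are fixed. In WT, the gained regions go from at most 19.7% at 2 h to at least 70.9% at 6 h, and the lost regions from at least 57% to at most 28.9%.

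The share of gained regions that WT held at 6 h was higher in each stronger group, as it was for all regions of equal strength in KO. Over all 103366 regions 67.6% were called in both WT libraries at 6 h, and of the gained 60.9%. Among the weakest 25% of gained regions, below the 16.9 mean percentile, both WT libraries at 6 h called 637 of 2196 (29%). In the next groups of 25% this share was 48.9% and 71%. Of the 880 members in the top 10%, above the 54.7 mean percentile, 875 (99.4%) were called in both WT libraries at 6 h and 681 (77.4%) were gained in WT by the full rule. The share called in both WT libraries at 2 h was 5.74% among the weakest and 6.02% among the top 10%, and at most 7.2% in any group between. Among all regions called in both KO libraries at 6 h and within the same limits of strength, both WT libraries at 6 h called 40.1% in the weakest group, then 60.8%, 82.2% and 96.7%, and 99.9% in the strongest. The gained regions stood below these shares in every group, by least in the strongest.

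For lost regions, both WT libraries at 2 h called 26.9% of the weakest 25% and 85.1% of the 195 members in the top 10%. All regions called in both KO libraries at 2 h gave 43.1% and 98.4% within the same limits of strength. The share of lost regions lost in WT went from 15.8% to 34.9%. At 6 h, 42.6% of the top 10% were called in neither WT library at 6 h, below the 64.4% of the weakest 25%.

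**Figure D4:**
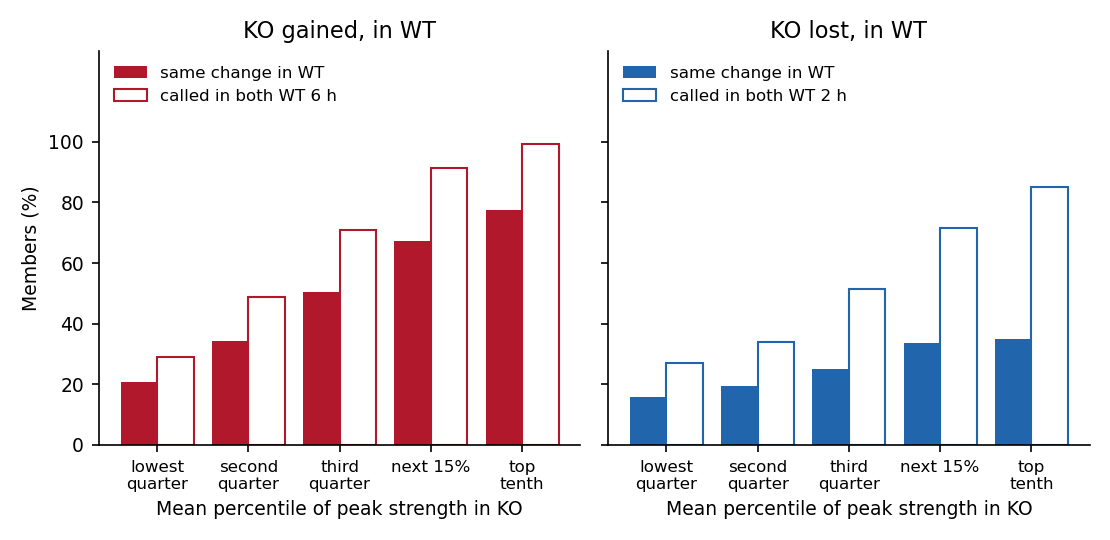
Share of KO gained (left) and KO lost (right) regions, in percent, that changed the same way in WT (filled bars) or were called in both WT libraries of the time at which KO called them (open bars), by strength in KO from the weakest 25% of members to the top 10%. Both bars grow with strength for gained regions, to 77.4% and 99.4%, and the open one also grows over all regions called in both KO libraries at 6 h (40.1 to 99.9%, not drawn), while for lost regions the filled bar stays at or below 34.9%.

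Gained regions were called less often at rest than lost ones. The rule had gained regions uncalled and lost ones called in KO at 2 h, so a difference at 0 h can follow from it. Of the regions called in all 4 KO libraries at 2 and 6 h, 45346 (80.7%) were called in both KO libraries at 0 h. How much of the difference stems from the rule was not tested. Of the gained regions, 7674 (87.3%) were called in 0 of 2 KO libraries at 0 h and 7204 (81.9%) in 0 of 2 WT libraries. No library at 0 h called 6652 of them (75.6%), and all 4 called 31. Over all regions, 27.4% were called in 0 of 4 and 44.7% in 4 of 4. Of the 6652 gained regions not called at rest WT gained 50.9%, against 20.5% of all 28352 regions not called at rest.

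Lost regions had a mixed state at rest. KO libraries at 0 h called 897 (46.2%) and 485 (25%) of them, and WT libraries at 0 h called 977 (50.3%) and 956 (49.2%). The same libraries called 59.8% and 50.7% (KO) and 61.6% and 61.2% (WT) of all regions. Background coverage was lower in KO at 0 h, at 1.77 and 1.43 reads against 2.35 and 2.51 in WT, and its part in the lower KO shares was not tested. All 4 libraries at 0 h called 243 (12.5%) of the lost regions and 0 of 4 called 475 (24.5%). WT lost 90 (37%) of the 243 and 57 (12%) of the 475. Among all regions of the same state at rest it lost 0.751% and 1.46%. WT could lose only regions that both its libraries at 2 h called, 208 (85.6%) of the 243 and 91 (19.2%) of the 475. On that base the order was the other way, with 90 of 208 lost against 57 of 91. Over all regions the order on that base was the same, with 347 of 45572 lost against 413 of 1957, so it was not particular to the lost regions.

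Of the lost regions 908 (46.8%) were called in neither KO library at 0 h, against 36.6% of all regions. KO called these at 2 h alone, and the part of the lower depth of KO at 0 h in that was not tested. Of the 908, 475 were also uncalled in both WT libraries at 0 h. The strongest of the 908 was chr4:144950774-144951431. It stood at 47 and 57.1 in KO at 2 h and at 51.5 and 48.5 in WT at 2 h, and no library at 6 h called it. WT 0 h replicate 2 already held it, at 35.8. chr19:47473477-47473943 showed the same calls in KO, with 46.6 and 52.6 at 2 h. chr1:172672490-172673022 stood at 49.1 and 49.8 but remained called in both WT libraries at 6 h, at 20.4 and 22.5. Next in rank were chr5:126274701-126275057 and chr10:19953213-19953659, and the latter was called in 0 of 4 libraries at 0 h.

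The opposite path, called in both KO libraries at 0 h, in neither at 2 h and in both at 6 h, held 118 regions (1.34% of the gained). Over all regions 47.2% were called in both KO libraries at 0 h. The strongest, chr4:109532844-109533580, was low in the KO lists of 0 h, at the 14.3 and 13.7 percentiles, and stood at 83.4 and 91.4 at 6 h, with 58 and 57 reads at the summit. WT did not call it at 0 h and called it in 1 library at 2 h, at 8.56, and in both at 6 h, at 72.7 and 78.2. chr1:165775756-165776523 was likewise low in KO at 0 h, at 19.9 and 0.567, and stood at 83 and 77.3 at 6 h. The others named, chr12:88688622-88689480, chr6:119151575-119152135 and chr9:57653655-57654297, had percentiles of at most 20 in KO at 0 h. Lists of different lengths give no change between times from these ranks.

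By the rule no changed region overlapped a KO peak of the other time, so some gap was fixed in advance. The gaps were not set against those of other regions. For gained regions, the median gap to the nearest KO peak at 2 h was 5035 bp (quartiles 1565.5 and 12186). It was 500 bp or less for 809 gained regions (9.2%) and over 10 kb for 2598 (29.5%). Lost regions lay closer to peaks at 6 h, at a median of 3142.5 bp (quartiles 969.25 and 8980.5), with 307 (15.8%) within 500 bp. The lists at 6 h held more peaks, and the part of that in the shorter distances was not tested. The leading gained region on chromosome 18 was 30442 bp from a 2 h peak, and chr17:42984233-42985396 was 27066 bp from one.

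**Figure D5:**
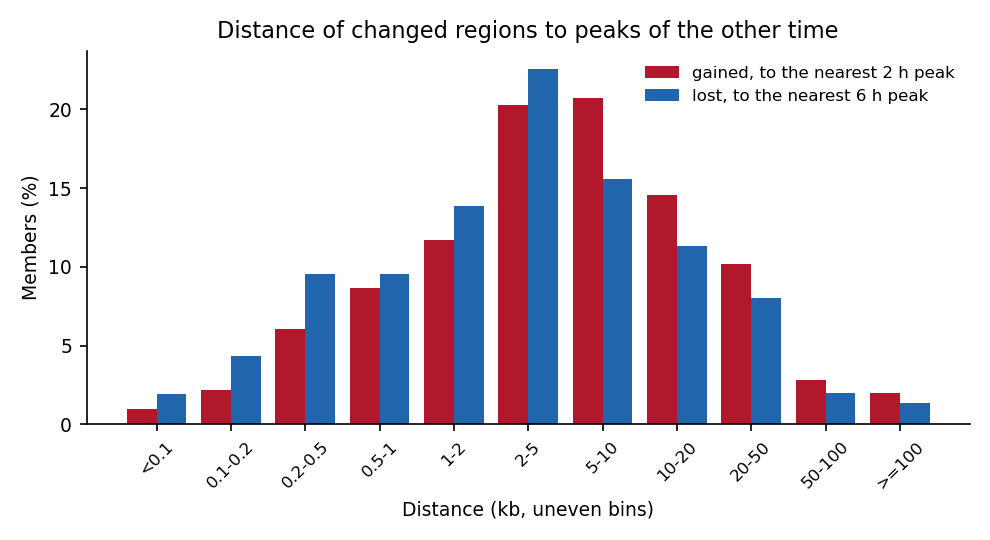
Distance in kb (uneven bins) from each gained region to the nearest KO peak at 2 h (red) and from each lost region to the nearest KO peak at 6 h (blue), as the percentage of the members of each kind. The fullest bins lie between 2 and 10 kb, and few members lie within 0.1 kb (0.966% of gained, 1.96% of lost).

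Changed regions were spread over the genome. By chromosome, gained regions made up from 7.16% of all regions on chromosome 17 to 9.99% on the X chromosome, and lost regions from 1.55% on chromosome 10 to 2.28% on chromosome 11. Of 15851 windows of 100 kb with a region, 6132 held a gained one and 535 held 3 or more, which together contained 1803 gained regions (20.5%). Windows with more regions can hold more gained ones, and the part of region density in these counts was not tested. Lost regions fell in 1771 windows, and 740 windows held both kinds.

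The window with the most gained regions was chr13:42300001-42400000. It held 16 regions, of which 8 were gained, 5 were called in all 4 KO libraries and none was lost. The strongest of the 8, chr13:42329358-42330001, stood at 53.4 and 40.7 at 6 h. The others had mean percentiles of 16.8 to 44.3. None of the 8 was called at 0 h in either genotype, and 7 were gained in WT as well. The exception, chr13:42391163-42391404, was called in 1 WT library at 2 h and in neither at 6 h.

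In chr5:30200001-30300000, 6 of 12 regions were gained, and all 6 were gained in WT too. This window held stronger sites: chr5:30246425-30247321 stood at 78 and 69.2, chr5:30299297-30299885 at 74.9 and 71.5, and chr5:30206413-30207320 at 68.7 and 70.1. The other 3 had mean percentiles of 8.2 to 17.7, and the highest of those was chr5:30292263-30292581. None of the 6 was called at 0 h.

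Other windows with 6 gained regions were matched less often by WT. In chr2:166500001-166600000 and chr6:17600001-17700000, 2 of 6 were gained in WT, and each window also held 1 lost region. In chr6:136700001-136800000, 1 of 6 was, and its strongest gained region, chr6:136741632-136742012, had a mean percentile of 30.3. Lost regions numbered at most 4 to a window, in chr5:66500001-66600000 and chr18:80800001-80900000, neither of which held a gained region. WT lost 3 of the 4 in the former. Among them, chr5:66531131-66531527 stood at 41.9 and 43.8 and chr5:66565625-66566216 at 42.3 and 43.2 in KO at 2 h. In chr1:127400001-127500000, 3 regions were lost, led by chr1:127422586-127423020 at a mean of 42.

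Some members were called in no WT library. Of the gained regions 905 (10.3%), and of the lost 175 (9.01%), were called in 0 of 6 WT libraries, and over all regions the share was 10%, so these shares were near the background. The strongest such gained region, chr11:107442553-107442972, stood at 53 and 47.8 in KO at 6 h, with 32 and 23 reads at the summit. chr14:48101993-48102322, at 37.3 and 51.6, and chr19:3962365-3962944, at 48.7 and 39.1, came next. chr3:88268398-88268700 and chr10:77526880-77527277 had means of 43.3 and 42.8 and lay 274 and 564 bp from a KO peak at 2 h.

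The strongest lost region without a WT call, chr7:4918143-4918462, stood at 45.3 and 19.2 at 2 h. It was followed by chr3:87711173-87711574, at 32.1 and 28.2, and chr14:80399908-80400241, at 27 and 32.5. chr14:18737072-18737489 and chr3:145313640-145313872 had means of 29.2 and 28.2. All 10 of these regions without a WT call were also absent from both KO lists at 0 h.

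Some regions changed in 1 genotype while the other held them at both times. Of the regions gained in KO, 409 (4.65%) were called in all 4 WT libraries at 2 and 6 h. Conversely, 467 of the 7595 regions gained in WT (6.15%) were called in all 4 KO libraries at those times. Of the lost regions 143 (7.36%) were called in all 4 WT libraries, and of the 2371 lost in WT 294 (12.4%) were called in all 4 KO libraries. Over all regions, all 4 WT libraries called 54.1% and all 4 KO libraries 54.4%. No test of these differences was made.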

How the data were processed

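Each library came as 1 list of peaks from the authors, made with Bowtie2 2.1.0, MACS2 and Picard on mm9 according to the submitters' processing notes. Peaks were called on each library alone, per the peak names in the deposited lists. The sources used here do not give MACS2 settings, duplicate handling or the correction for the Tn5 offset. Kept duplicates would raise peak values, and an uncorrected offset moves borders by a few bases. Per peak, the deposited lists give a score, which is 10 times the −log10 q, a fold ratio over local background, and the −log10 of the p-value and of the q-value. The −log10 q ordered peaks inside 1 list, and the resulting percentiles were averaged over replicates. Fold and p also gave the coverage and background described below. Cut-offs of −log10 p (4.28, for thinning) and −log10 q (5, as an alternative) were the same for every list they were applied to. On chromosome 1 peaks reach 197068375, past the last gene of the GRCm38 table supplied, at 195291439, so that table was not used.

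Summit coverage and local background were solved from each fold and Poisson p, and reproduced p within 0.001 (log10) for 100% of peaks. The lowest background served as a library's depth. For thinning, summit coverage was drawn down to a background of 2.17 reads and peaks with −log10 p of at least 4.28 were kept, with their width unchanged. Lists have no counting interval. Replicate lists shared 30 (2 h) and 20 (6 h) identical intervals, so neither list of a pair was a copy of the other. Regions, percentiles, counts and the exact permutation test were computed with scipy 1.17.1, pandas 2.3.3 and numpy 2.4.6 under Python 3.11.15, and the counting and the coverage step were tested on simulated data. Named regions are the 10 gained and 10 lost with the highest mean percentile, up to 5 each without a WT call, opposed in WT or returning to the state at 0 h, the 5 widest gained regions and the windows with the most. The members and lists were chosen with earlier results of these data known. Planned gene lists, cell type markers and motifs needed mm9 annotation or sequence and were not used. Alternatives were depth, peak number, threshold, chaining, distance and each library left out.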

Additional observations from a re-analysis of the deposited data

Results flagged for a closer look

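In 59 regions the genotypes moved in opposite directions by calls: they were gained in both KO libraries and lost in both WT libraries from 2 to 6 h. They were 0.671% of the gained regions, against 2.29% of all regions lost in WT. Among regions called in both WT libraries at 2 h, which WT could lose, the shares were 10.2% of 577 gained regions and 3.79% of 62639 regions in all. Of those 62639, 52902 were called in all 4 KO libraries, and WT lost 0.556% of these. The 3.79% is therefore no matched reference, and nothing is concluded from that order. The strongest was chr7:26209433-26209782, at the 37.3 and 32.2 percentiles in KO at 6 h and at 16.8 and 24.7 in WT at 2 h, followed by chr17:34995584-34995949, chr2:130755641-130756019, chr19:24798183-24798467 and chr2:5619642-5620045. The reverse, lost in KO and gained in WT, held 29 regions, 1.49% of the lost, against 7.35% of all regions gained in WT, and 8.1% of the 358 that neither WT library called at 2 h, against 28.8% of 26364. It was led by chr19:60695603-60695944, at 35.9 and 16 in KO at 2 h, and chr16:92811995-92812452, and went on with chr1:69816793-69817198, chr11:99099829-99100135 and chr11:96824883-96825172. No region's difference between genotypes was tested. Thinned lists held 51 and 32 such regions, and peaks with −log10 q of at least 5 gave 65 and 20. All 10 named regions had mean percentiles of at most 34.7 in KO.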

How the results depend on the processing

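Gained regions outnumbered lost ones under every alternative run for those counts. More peaks were listed at 6 h in thinned lists (11318.5), with −log10 q of at least 5 (11217) and with each library left out, the alternatives run for that difference. Counts stayed within 1.5 times the main count in thinned lists, with −log10 q of at least 5, chaining at 100 bp, chaining of all 12 lists and no peak of the other time within 500 bp. An equal number of peaks per list gave 5529 gained and 4195 lost regions and a gained share of 56.9%, and WT then shared 46.8% of gains and 28.6% of losses. The gained share was 80.8% in thinned lists and 83% with no peak of the other time within 500 bp, and WT shared 42.6% of gains at −log10 q of at least 5. Leaving out 1 library, which loosens the rule, gave 11701 to 19632 gained, 2660 to 6197 lost, gained shares of 66.9 to 88.1%, WT-shared gains of 26.4 to 55.6%, WT-shared losses of 12.7 to 38.6% and peak differences of 5230 to 18074. With the replicate number as a block the peak difference was 11652 (exact permutation p = 0.5, the smallest possible). No paired analysis was possible for the region counts because they come from no test. Depth limits calls: sites of low coverage can be missed where fewer reads were sequenced.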
